A study of Mus musculus with 2 samples.

Results

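Chromatin accessibility at 37 genes for enzymes and structural proteins that write, erase or read DNA methylation and histone marks, move nucleosomes or fold chromosomes was examined in basal cells of mouse back skin. ATAC-seq uses the transposase Tn5 to cut and tag DNA wherever chromatin is open. It gave 1 control library from an untreated mouse (treatment label none) and 1 stretched library from a mouse whose skin was expanded by force (tissue stretching). Both animals were CD1, an outbred stock, and the sources used here give neither age nor sex. Each library came from 10000 interfollicular epidermal cells sorted as ITGA6+, an integrin subunit of cells on the basement membrane, and CD34-, which leaves out follicle stem cells. A region was given to a gene when that gene's span (RefSeq, GRCm38.p6) was the nearest protein-coding span, at no more than 20 kb. Of 73058 regions with at least 20 summed counts that lay near any gene, 222 belonged to 36 of the 37 regulators. A further 24 regions of these genes lay under that minimum, 3 of them at 19 counts, and 2 of those kept stood at 20. Hdac3, a deacetylase gene, received none, because a region over its span went to the shorter overlapping gene Rell2.

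DNA methylation is copied onto new DNA strands by DNMT1 with its partner UHRF1, is laid down on unmethylated DNA by DNMT3A and DNMT3B, and is removed stepwise through oxidation by the TET enzymes. Polycomb complexes place repressive marks on histones, the KMT2 enzymes methylate histone H3 at promoters and enhancers, and BAF remodellers use ATP to slide or evict nucleosomes. In epidermis the balance of these activities is known for holding basal cells in a progenitor state and for releasing the differentiation genes, with DNMT1, UHRF1, EZH2, JARID2, SATB1 and HDAC1 with HDAC2 among the studied examples.

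The promoter windows of 5 members are shown first, because the region over each of them had one of the 4 highest folds or the lowest fold among the promoters described below. Each is the RefSeq window from 250 bases before to 50 bases after an annotated start, written 5′ to 3′ on the gene's strand. Capitals mark GGGCGG or CCAAT, a GC box and a CCAAT box, on either strand, and GGGCGG on the other strand reads CCGCCC. The windows lie at chr8:57511593-57511892 (plus strand) for Hmgb2, chr2:18676768-18677067 (plus) for Bmi1, chr10:36974294-36974593 (plus) for Hdac2, chr3:133544341-133544640 (minus) for Tet2 and chr10:62887275-62887574 (minus) for Tet1.
Hmgb2: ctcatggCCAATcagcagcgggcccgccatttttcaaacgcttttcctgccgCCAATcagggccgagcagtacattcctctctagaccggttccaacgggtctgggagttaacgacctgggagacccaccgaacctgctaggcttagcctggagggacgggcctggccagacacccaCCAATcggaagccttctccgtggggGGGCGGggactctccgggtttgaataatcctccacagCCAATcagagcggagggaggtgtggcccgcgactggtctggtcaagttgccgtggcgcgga
Bmi1: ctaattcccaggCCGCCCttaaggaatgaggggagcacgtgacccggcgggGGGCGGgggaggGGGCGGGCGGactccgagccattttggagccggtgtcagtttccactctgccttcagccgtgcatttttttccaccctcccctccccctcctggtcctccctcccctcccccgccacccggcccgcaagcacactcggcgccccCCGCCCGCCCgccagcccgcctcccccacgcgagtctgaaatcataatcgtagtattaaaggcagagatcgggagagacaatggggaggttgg
Hdac2: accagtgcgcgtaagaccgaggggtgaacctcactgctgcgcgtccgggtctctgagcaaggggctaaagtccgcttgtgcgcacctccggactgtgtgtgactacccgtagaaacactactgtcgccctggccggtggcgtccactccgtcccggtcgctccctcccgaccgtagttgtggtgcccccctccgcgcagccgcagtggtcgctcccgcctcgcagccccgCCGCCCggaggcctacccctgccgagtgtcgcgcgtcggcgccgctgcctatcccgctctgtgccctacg
Tet2: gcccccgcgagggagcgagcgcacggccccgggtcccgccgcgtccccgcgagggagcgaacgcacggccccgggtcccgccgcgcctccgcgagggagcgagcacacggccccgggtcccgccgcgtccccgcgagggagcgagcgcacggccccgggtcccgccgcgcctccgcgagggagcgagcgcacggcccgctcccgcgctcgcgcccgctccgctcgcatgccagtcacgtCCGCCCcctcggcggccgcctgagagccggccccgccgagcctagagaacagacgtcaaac
Tet1: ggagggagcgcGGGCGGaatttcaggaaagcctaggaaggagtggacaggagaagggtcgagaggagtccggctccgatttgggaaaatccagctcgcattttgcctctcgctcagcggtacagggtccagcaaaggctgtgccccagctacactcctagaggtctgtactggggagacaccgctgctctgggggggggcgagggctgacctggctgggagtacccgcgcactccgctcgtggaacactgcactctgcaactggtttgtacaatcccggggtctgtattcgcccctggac
The Hmgb2 window held 4 CCAAT boxes and 1 GGGCGG, and the Bmi1 window 6 matches of GGGCGG, some of which overlap. CG dinucleotides, the sites that DNMT and TET enzymes act on, numbered 57 in the Tet2 window, 36 in that of Hdac2, 23 in that of Bmi1, 20 in that of Hmgb2 and 17 in that of Tet1.

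RefSeq windows were at hand for 33 of the 37 members, 48 windows in all, with Hdac1, Hdac3, Kdm6b and Rad21 among the genes named only. These windows held a median of 25.5 CG dinucleotides (0 to 57), against 7 over all 32851 windows. The latter belong to 27025 genes and so reach beyond the 21900 protein-coding ones. The part of gene type in this and the next contrasts was not tested. GGGCGG was present in 36 of 48 (75.0%, against 35.7% of all windows) and CCAAT in 18 (37.5%, against 37.4%). The E2F letters TTTCCCGC or TTTGGCGC were present in 4 (8.33%, against 1.56%), the NRF1 letters GCGCATGC in 3 (6.25%, against 2.71%), the AP-1 letters TGANTCA in 2 (4.17%, against 7.81%) and the ETS letters CCGGAAG in 1 (2.08%, against 8.86%). TGACGTCA, the CRE letters, matched none of the members' windows and 1.79% of all. Both strands were searched, and none of these motifs contains another. A match is a run of letters and not a bound site.

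After filtering, 31944854 control and 23876613 stretched fragments remained, while the counts over all 109257 regions came to 8820178 and 11803785. In 10 regions with over 10000 counts each lay much of the difference, since the counts outside them were 5776423 and 6027023. The member regions summed to 16199 control and 16410 stretched counts. Every fold below is stretched over control after TMM scaling, in which 1 stretched count weighs as much as 1.06 control counts. Every interval is an exact Clopper-Pearson interval at 95% for counting error alone. With 1 library per group there is no replicate check and no test, so the animal, the library and the stretching cannot be told apart. A region is called higher or lower when its fold is at least 2 in either direction and its interval excludes 1. Scaling by the total counts instead lowered every fold and moved the median log2 fold of all assigned regions from -0.01 to -0.51, so each fold is relative to the median region. Markers of the labelled cell type and of others were compared between the libraries, which does not test the label itself. All 6 basal genes had regions, 82 together, with a summed fold of 1.09 (1.05 to 1.14) that total scaling would carry below 1. This list was mixed. Trp63, Itga6 and Krt14 had folds of 1.22, 1.22 and 1.20, but Krt5 had 0.979, Itgb4 0.974 and Col17a1 0.891 (0.809 to 0.981). The 4 suprabasal genes, all with regions, stood at 0.836 (0.763 to 0.916) and the 6 follicle genes at 0.904 (0.851 to 0.961). Both of these lists were mixed too. Among the suprabasal genes Krt1 and Krt10 had folds of 0.629 and 0.598 but Lor 1.24 (1.05 to 1.47) and Ivl 1.11. Among the follicle genes Krt79 had 0.495 but Lgr5 1.28 and Cd34, the gene of the sorting marker, 1.41 (1.24 to 1.60). Total scaling carries these values above 1 down, below 1 for Lor, Ivl, Lgr5 and Cd34 alike. The 5 melanocyte genes stood at 0.938, the 4 immune genes at 0.913 (0.771 to 1.08), the 4 fibroblast genes at 0.698 (0.614 to 0.793) and the 3 endothelial genes at 0.905. Of 4 Merkel cell genes, Krt20 had no region and the others stood at 0.889, from 0.677 for Krt18 to 1.04 for Atoh1. Total scaling lowers each of these values too. The part of other cell types in the values below was not tested, and fewer cells of a type cannot be told apart from less open chromatin per cell.

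Among the 222 regions of the regulators, 12 were higher in the stretched library (5.41%, 2.82 to 9.25) and 22 were lower (9.91%, 6.32 to 14.6). Of all assigned regions, 6.81% were higher and 8.66% lower, and both shares lie inside the members' intervals. The median log2 fold was -0.12 over the members and -0.01 over all assigned regions. Total scaling, which lowers every fold, keeps all 22 lower calls by construction. Of the 12 higher ones 3 passed under it, a region near Hdac2, one in Smarca2 and one in Kdm6a, and none of the other 9 turned below 1. With the count trend removed, 17 of the 22 lower calls and 10 of the 12 higher ones stayed. The lower calls lost were 1 each at Kdm5b, Jarid2 and Tet3 and 2 at Arid1b, and the higher ones lost were the promoters of Bmi1 and Hmgb2. The 34 called regions lay in 17 genes, 8 with higher ones alone, 8 with lower ones alone and Smarca2 with both. They were mostly thin, with a median of 48 summed counts and 6 of them at 100 or more. No member region had a count of 0 in either library.

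**Figure D1:**
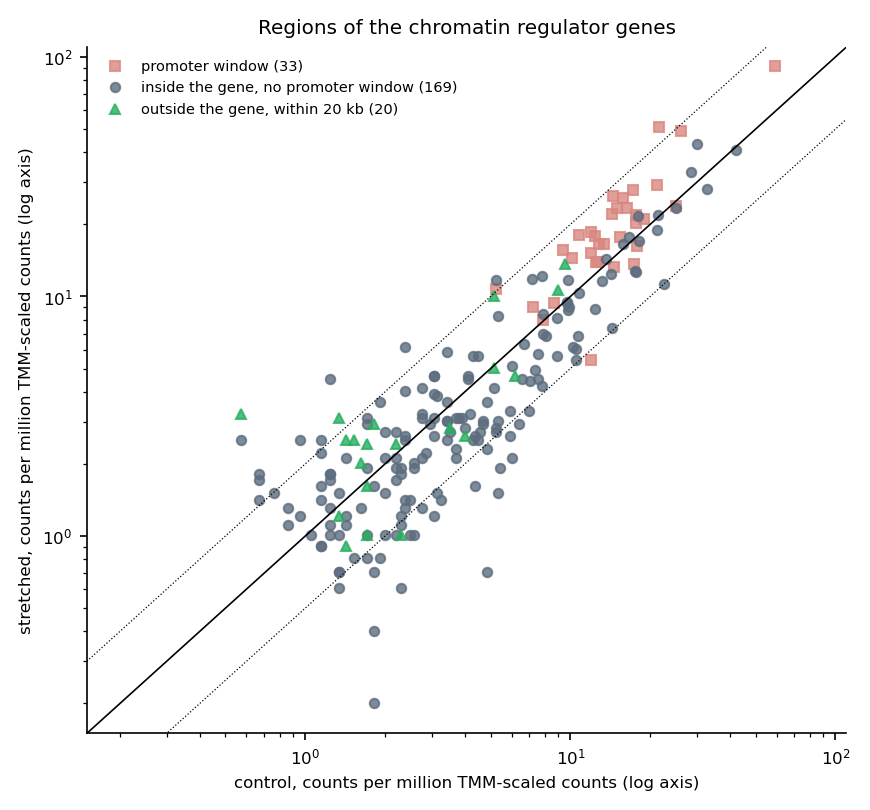
CPM after TMM scaling of the 222 regulator regions, control on the x axis and stretched on the y axis, both on log axes. Squares are the 33 promoter regions, circles the 169 regions inside a gene away from promoters and triangles the 20 outside the gene; the solid line marks equal values and the dotted lines a fold of 2. Most squares lie above the solid line and most circles below it, while total scaling would put the median square below it too.

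Direction went with place. In the 33 regions over a promoter window, which belong to 31 genes, the fold was above 1 in 28 (84.8%, against 69.9% of all 10619 promoter regions). Their median log2 fold was 0.38, against 0.30 for all promoters, and -0.12 against -0.20 with total scaling, which turns both below 0. The interval lay above 1 in 19 of the 33, where 44.4% of all promoter regions did so, and below 1 in 2, where 8.78% did. By the rule of size 2 were higher and 1 lower, beside 9.71% and 2.3% of all promoters. Inside the genes and away from promoters, 111 of 169 regions had a fold below 1 (65.7%, against 54.3% of all such regions). There 8 were higher and 20 lower, 4.73% and 11.8%, beside 6.05% and 9.86% of all such regions. Hdac1, Kdm6b and Rad21 have no listed window, so regions at their starts count as away from promoters. A Tet3 region centred 222 bp from the gene's 5′ end lies over no listed window and counts likewise. Arid1b alone holds 46 of these 169, and without it 78 of 123 lay below 1 (63.4%), with 8 higher and 14 lower. The 20 regions in the flanks had 2 higher and 1 lower, 10% and 5%, beside 7.03% and 9.42% of all flank regions. Count goes along with place, since the promoter regions had a median of 317 counts and the inner ones 65. With the trend of fold on count removed, the promoter median was 0.15 for the members and 0.10 for all promoters, and 21 of 36 genes had a summed fold above 1, where 26 had one before.

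Within a gene, the promoter can be set against the gene's other regions, and the ratio of their folds does not depend on the scaling. It can depend on the trend of fold on count, and ratios with that trend removed are not given here. Of 27 members with both kinds of region, the promoter had the larger fold in 21 (77.8%, against 71.3% of 7536 genes), and the median ratio was 1.24, against 1.26 for all. The promoter's interval lay wholly above that of the other regions in 8 members, where 23% of all genes did so. These were Dnmt3a, Kmt2a, Kmt2c, Smarca2, Smarca4, Arid1b, Jarid2 and Hmgb2, with ratios from 2.53 for Dnmt3a to 1.38 for Smarca2. It lay wholly below in 1 (2.55% of all genes), Kdm1a, a histone demethylase gene, at 0.419. The lowest promoter folds after Tet1 and the upstream region of Arid1a were those of Chd4, with 153 and 132 counts (0.912, 0.717 to 1.16), the other Arid1a region and Tet3, with 262 and 236 (0.952, 0.795 to 1.14). In 4 members the promoter's interval lay above 1 and that of the other regions below 1, beside 5.65% of all genes. Dnmt3a had folds of 1.43 (1.10 to 1.85) at the promoter and 0.564 (0.493 to 0.645) elsewhere. Kmt2c had 1.63 (1.34 to 1.97) and 0.719 (0.539 to 0.954), Smarca4 1.67 (1.32 to 2.14) and 0.773 (0.637 to 0.937), and Arid1b 1.24 (1.01 to 1.51) and 0.897 (0.852 to 0.945). With total scaling the promoter fold of Arid1b turned to 0.876 and that of Dnmt3a stood at 1.01, while those of Kmt2c and Smarca4 were 1.15 and 1.18. The lower limits of these promoter intervals all fell below 1 with that scaling.

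**Figure D2:**
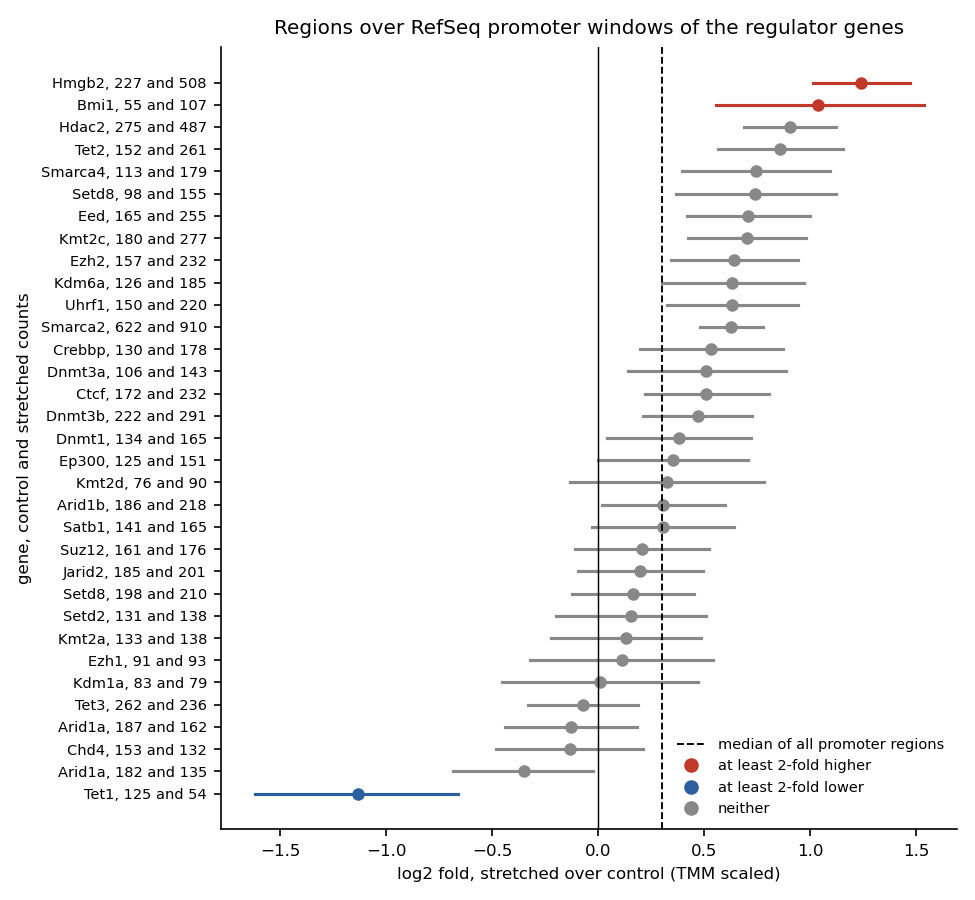
Log2 fold (stretched over control, TMM scaled) of the 33 regions over promoter windows, 1 row per region with its control and stretched counts. Bars are exact intervals for counting error, the dashed line is the median of all promoter regions (0.30), and colours mark regions at least 2-fold higher or lower. Hmgb2 and Bmi1 stand at the top and Tet1 stands alone at the bottom.

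Summed over its regions, a gene's interval lay above 1 in 18 of 36 members (50.0%, beside 36.1% of 16763 genes) and below 1 in 7 (19.4%, beside 18.3%). The 7 were Tet1, Tet3, Dnmt3a, Jarid2, Kmt2a, Arid1a and Arid1b, and all 7 kept an interval below 1 with DESeq2 size factors and with the count trend removed. Of the 18, only Bmi1, Hdac2, Hmgb2 and Tet2 kept an interval above 1 with total scaling, and 8 turned to a fold below 1, namely Crebbp, Ctcf, Dnmt1, Dnmt3b, Ep300, Kmt2c, Setd8 and Smarca2. None of the 18 turned with the counts outside the 10 large regions as the scale or with the count trend removed. With promoter regions left out of the sums, 8 members had an interval above 1 and 9 below. Those above were Tet2, Dnmt3b, Eed, Rad21, Satb1, Hdac2, Kdm1a and Kdm6a, and Smarca4 and Kmt2c joined the 7 below. The shares of all genes summed in this way are not given here. Regions outside promoter windows had folds below 1 in 63.5% of cases for the members and 53.9% for all assigned regions.

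**Figure D3:**
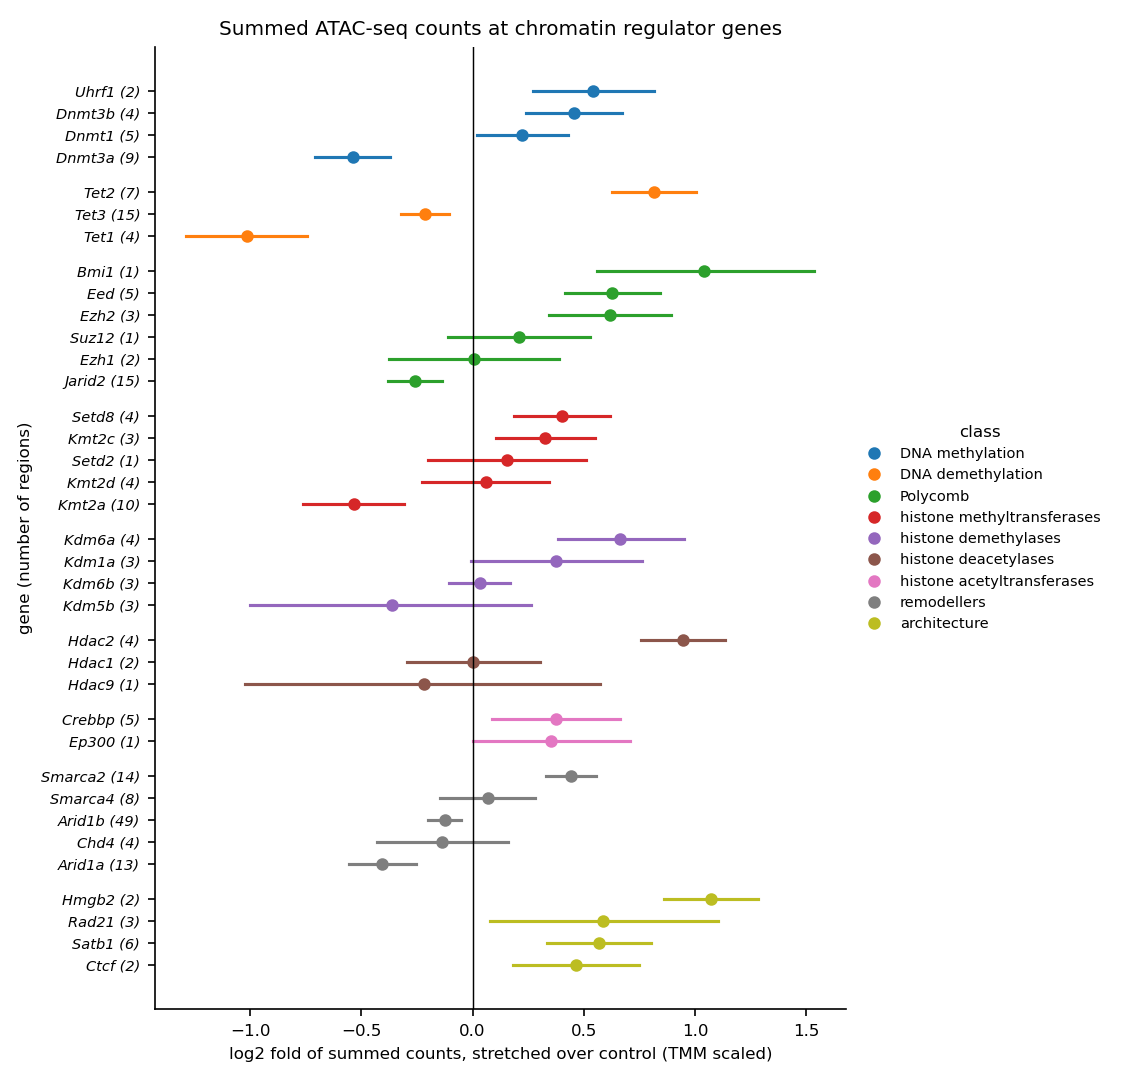
Log2 fold of the summed counts of each of the 36 genes with regions (stretched over control, TMM scaled), coloured by class, with the number of regions in brackets and exact intervals for counting error as bars. The TET genes span from Tet1 (log2 fold -1.01) to Tet2 (0.82), and the 4 genes of chromosome architecture all lie to the right of 0, of which Ctcf turned below 0 with total scaling.

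The TET dioxygenase genes, which start DNA demethylation by oxidising methylcytosine, went apart from each other. Of their 26 regions 1 was higher (3.85%, beside 6.81% of all assigned regions) and 3 were lower (11.5%, beside 8.66%). All 4 regions of Tet1 had folds below 1, and the sum was 356 counts in the control library and 167 in the stretched one (0.496, 0.410 to 0.597). The promoter region of Tet1, chr10:62885931-62887630, had 125 and 54 counts (0.456, 0.325 to 0.633). It was the only called lower promoter among the members. A region deep in the gene, chr10:62812882-62813259, had 34 and 14 (0.435, 0.216 to 0.832), and a listed peak in the control library alone. At the Tet1 promoter the authors' peak calls gave nearly the same enrichment over local background in both libraries, 6.05 (control) and 6.10 (stretched). All 7 regions of Tet2, by contrast, had folds above 1, with 371 and 618 counts and a fold of 1.76 (1.55 to 2.01) that stood at 1.24 with total scaling. Its promoter region had 152 and 261 counts (1.81, 1.48 to 2.23). The region with the largest fold in Tet2, chr3:133524149-133525135 and 20494 bp inside the gene from its 5′ end, had 25 and 61 counts (2.58, 1.59 to 4.29). The intervals of Tet1 and Tet2 lie far apart at the promoter and in the rest of the gene, and no scaling changes their order. Tet3 lay between them, with 14 of 15 regions below 1, 1588 and 1296 counts and a fold of 0.862 (0.801 to 0.929). Its 1 called region, chr6:83420483-83420849, rested on 19 and 7 counts (0.389, 0.138 to 0.967), and that call was lost once the count trend was removed.

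**Figure D4:**
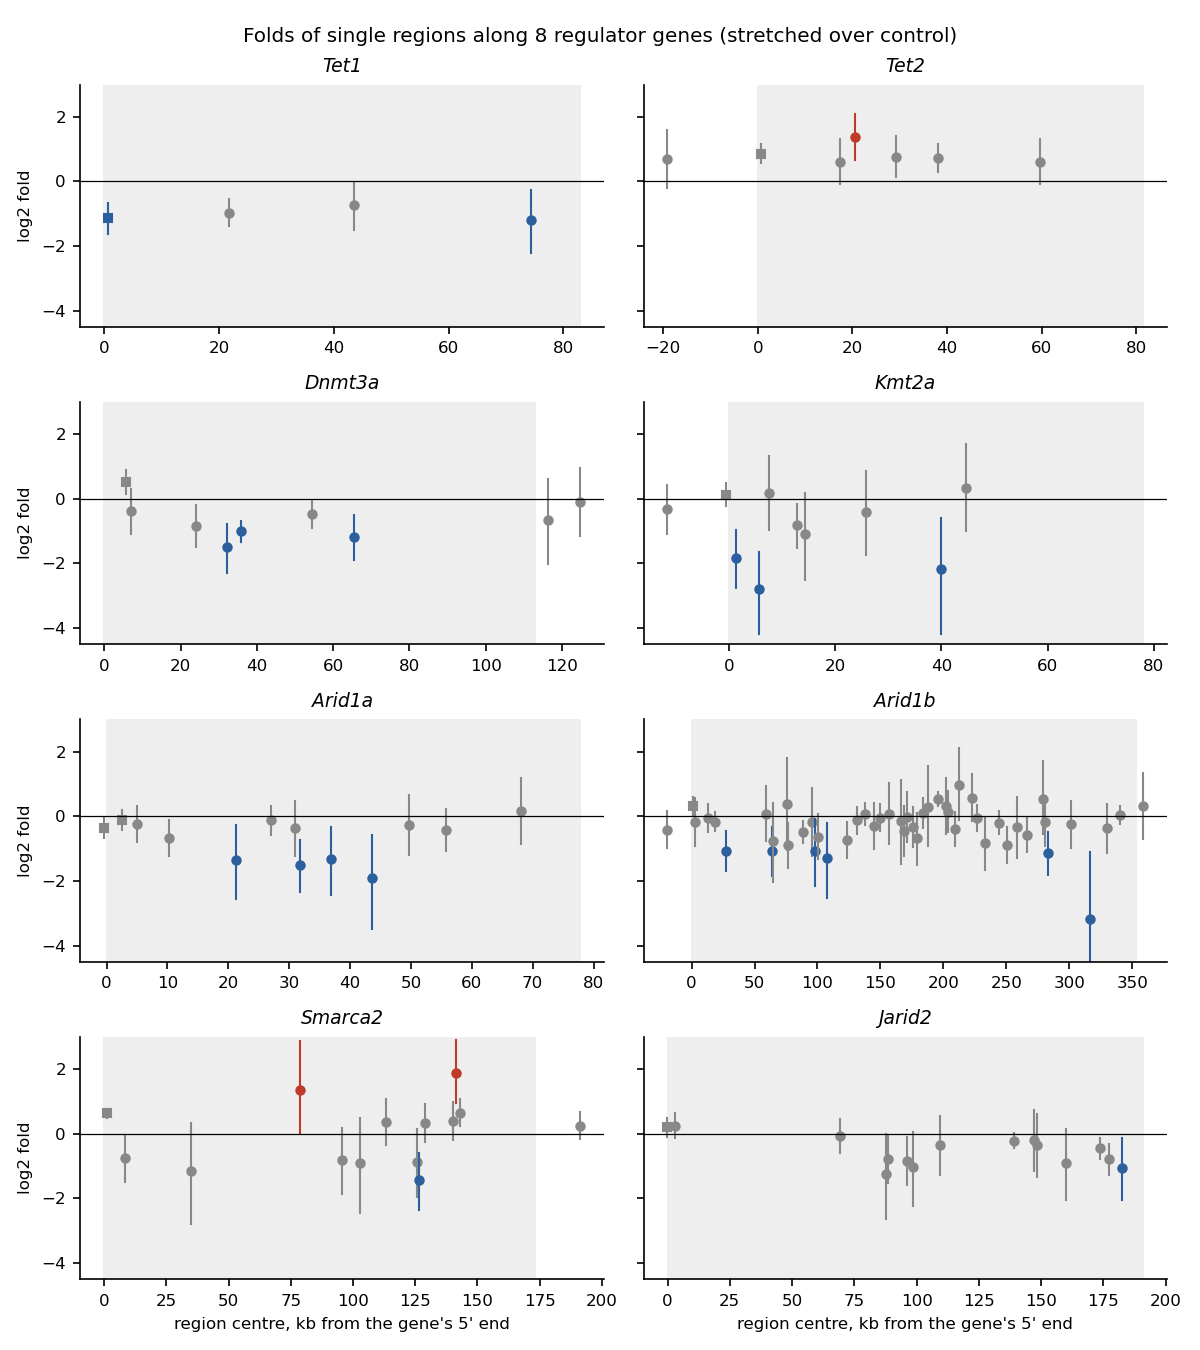
Log2 fold of each region (TMM scaled) against the distance of its centre from the gene's 5′ end in kb, for 8 regulator genes. Grey bands mark the gene, squares promoter regions, vertical bars exact intervals, red and blue regions at least 2-fold higher or lower; the interval of 1 Arid1b region runs below the axis. All Tet1 points lie below 0 and all Tet2 points above it, and the blue points of Dnmt3a, Kmt2a and Arid1a lie inside the gene.

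The 4 DNA methylation genes, Uhrf1 among them, had 3 lower of 20 regions (15%, 3.21 to 37.9) and none higher (0 to 16.8). These intervals hold the 8.66% lower and 6.81% higher of all assigned regions. Of the DNA methyltransferase genes, Dnmt3a, for the enzyme that methylates unmarked DNA, was the one with called regions. Over 9 regions it had 737 and 480 counts (0.688, 0.612 to 0.773). The 3 lower regions lay inside the gene, between 32152 and 65366 bp from its 5′ end. In order they were chr12:3833397-3834025 with 63 and 21 counts (0.352, 0.204 to 0.585), chr12:3837028-3837818 with 237 and 112 (0.499, 0.395 to 0.628) and chr12:3866555-3867296 with 62 and 26 (0.443, 0.269 to 0.711). All 8 regions away from the promoter had folds below 1, while the promoter region had 106 and 143 counts. The region of 237 and 112 counts sat at the limit, and it missed the call with DESeq2 size factors. Dnmt3b, its paralogue, had 317 and 411 counts over 4 regions (1.37, 1.18 to 1.59, and 0.969 with total scaling). Dnmt1, the maintenance enzyme, had 371 and 410 over 5 regions (1.17, 1.01 to 1.35, and 0.826 with total scaling). Uhrf1, the partner that brings DNMT1 to newly copied DNA, had 193 and 266 over 2 regions (1.46, 1.21 to 1.76, and 1.03 with total scaling). None of the 11 regions of these 3 genes was called, and the interval of Dnmt3a did not meet that of any of them.

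Among the 6 Polycomb genes, Bmi1 stood highest and Jarid2 lowest. Of the 27 Polycomb regions 1 was higher and 1 lower (3.70% each), beside 6.81% and 8.66% of all assigned regions. Bmi1, a core subunit of the complex that ubiquitinates histone H2A, had 1 region, its promoter at chr2:18676404-18678048. It had 55 and 107 counts, a fold of 2.06 (1.47 to 2.90) that stood at 1.45 with total scaling and at 1.99 with the count trend removed, both short of a call. The authors' enrichment there was 4.21 (control) and 4.27 (stretched). Ezh2, the methyltransferase of the other Polycomb complex, had 191 and 277 counts over 3 regions (1.53, 1.27 to 1.85). Eed, which that enzyme needs for activity, had 311 and 455 over 5 regions (1.55, 1.34 to 1.79). With total scaling Ezh2 and Eed stood at 1.08 and 1.09. All regions of both genes had folds above 1, and 1 region of each turned below 1 with total scaling. Suz12, a further core subunit, had 161 and 176 counts (1.16, 0.928 to 1.44). Ezh1, the paralogue of Ezh2, had 120 and 114 (1.0, 0.770 to 1.31), and the intervals of Ezh1 and Ezh2 overlap. Jarid2, a cofactor that brings this complex to DNA, had 1261 and 997 counts over 15 regions (0.835, 0.768 to 0.909). Of its regions, those at and just behind the promoter had 185 and 201 counts and 103 and 116 counts, both with folds above 1 that turned below 1 with total scaling, and the 13 further in all had folds below 1. The 1 called lower, chr13:44912964-44913322, had 33 and 15 counts (0.480, 0.242 to 0.909), and it was no longer called once the count trend was removed.

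At the histone methyltransferase genes, 3 of 22 regions were lower (13.6%, 2.91 to 34.9, an interval that holds the 8.66% of all assigned regions) and none higher (beside 6.81%), and all 3 lay in Kmt2a. With total scaling 6 of the 22 were lower, where 23.4% of all assigned regions were. Kmt2a encodes the MLL1 protein, which methylates histone H3 at active promoters, and it had 408 and 267 counts over 10 regions (0.692, 0.590 to 0.809). The 2 lower regions nearest its start had the lowest folds of any member region with at least 50 counts. One, chr9:44875507-44875882, lay 5658 bp inside the gene and had 51 control and 7 stretched counts (0.145, 0.0555 to 0.321). The other, chr9:44879847-44880385 at 1236 bp, had 56 and 15 (0.283, 0.149 to 0.507). Both had a listed peak in the control library alone. The third, chr9:44841041-44841685, had 19 and 4 (0.222, 0.0550 to 0.669). The promoter region next to them had 133 and 138 counts (1.10, 0.858 to 1.40), so the low folds did not extend over the whole 5′ end of the gene. Kmt2c, which marks enhancers, had 305 and 362 counts over 3 regions (1.25, 1.07 to 1.47, and 0.887 with total scaling). Kmt2d, its paralogue, had 210 and 207 over 4 (1.04, 0.855 to 1.27). Setd2, which marks the bodies of transcribed genes, had 131 and 138 at its promoter (1.11, 0.870 to 1.42). Setd8, now named Kmt5a, which places a single methyl group on histone H4, had 325 and 406 over 4 (1.32, 1.14 to 1.53, and 0.933 with total scaling).

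The genes for enzymes that remove histone methylation had 3 higher of 13 regions (23.1%, 5.04 to 53.8, an interval that holds the 6.81% of all assigned regions) and 1 lower (7.69%, beside 8.66%). With total scaling there was 1 of each, where 1.40% and 23.4% of all assigned regions were called. Kdm1a, which encodes the demethylase LSD1, had both of its inner regions higher. They had 10 and 25 counts at chr4:136598303-136598842 (2.64, 1.23 to 6.16) and 12 and 25 at chr4:136569967-136570735 (2.2, 1.07 to 4.81), each with a listed peak in the stretched library alone. Its promoter region had 83 and 79 counts (1.01, 0.730 to 1.39). Summed, Kdm1a had 105 and 129 counts (1.30, 0.996 to 1.70). Kdm6a, also called UTX, which removes the Polycomb mark on histone H3, had 174 and 261 counts over 4 regions (1.59, 1.30 to 1.93, and 1.12 with total scaling). Of these, chrX:18254509-18255103 had 6 and 25 counts (4.40, 1.76 to 13.1). Kdm6a lies on the X chromosome, whose 1670 regions had a median log2 fold of 0.44, beside 0.66 for the summed counts of Kdm6a. The 32 regions of the Y chromosome had a median of -0.58. The part of a sex difference between the 2 animals in the fold of Kdm6a was not tested. Kdm6b, known as JMJD3, acts on the same mark and had 878 and 849 counts over 3 regions (1.02, 0.929 to 1.12). Kdm5b, which erases the KMT2 mark, had 53 and 39 over 3 (0.778, 0.501 to 1.20). Its lower region, chr1:134636837-134637269, lay 3959 bp outside the gene with 24 and 10 counts (0.440, 0.188 to 0.955), and that call was lost with the count trend removed. The region over the Kdm5b promoter went to the overlapping gene Mgat4e by the rule, and it had 63 and 62 counts.

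Hdac2 stood apart among the deacetylase genes, whose proteins strip acetyl groups from histones. All 4 of its regions had folds above 1 (3 with total scaling), with 353 and 643 counts in all (1.92, 1.69 to 2.2, and 1.36 with total scaling). Its promoter region, chr10:36973864-36975395, had 275 and 487 counts (1.87, 1.61 to 2.18). The authors' enrichment there was 9.11 (control) and 13.6 (stretched). A region 7992 bp outside the gene, chr10:36965739-36966305, had 6 and 32 counts (5.64, 2.32 to 16.5), the largest fold of any member region, and a listed peak in the stretched library alone. Hdac1, its close paralogue and partner in the same complexes, had 193 and 183 counts over 2 regions (1.0, 0.814 to 1.23), and the intervals of the pair do not meet. Hdac9, of the class of deacetylases that answer to signals, spans 869516 bp and had 1 region with 32 and 26 counts (0.859, 0.491 to 1.49). The region over Hdac3 that went to Rell2 had 117 and 192 counts (1.73, 1.37 to 2.2, not called). At the acetyltransferase genes, which encode the coactivators CBP and p300, none of 6 regions was called. Of all assigned regions 6.81% were higher and 8.66% lower. Crebbp had 185 and 227 counts (1.30, 1.06 to 1.58) and Ep300 125 and 151 (1.28, 1.0 to 1.63), and both turned below 1 with total scaling.

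The remodeller genes held 88 regions, of which 2 were higher (2.27%, beside 6.81% of all assigned regions) and 11 lower (12.5%, 6.41 to 21.3, an interval that holds the 8.66% of all). With total scaling 1 was higher and 29 lower, where 1.40% and 23.4% of all assigned regions were. Arid1a and Arid1b, which encode alternative DNA-binding subunits of the BAF complex, held 10 of the 11. Arid1a had 862 and 616 counts over 13 regions (0.755, 0.680 to 0.838), 12 of them below 1. Its 4 lower regions lay between 21313 and 43594 bp from the 5′ end. The one with the most counts, chr4:133724623-133725300, had 57 and 19 (0.352, 0.198 to 0.601), and the others had 24 and 6, 32 and 12, and 27 and 10. A region between them, at 26929 bp, had 93 and 81 counts (0.920, 0.675 to 1.25), so the stretch was not lower throughout. The 2 promoter regions of Arid1a had 182 and 135 counts (0.784, 0.623 to 0.985) and 187 and 162 (0.915, 0.737 to 1.14). Arid1b, with 49 regions the most of any member and 13.3 per 100 kb, had 3348 and 2903 counts (0.916, 0.872 to 0.963). Of its 6 lower regions the one with the second most counts, chr17:5277149-5278069, had 67 and 29 (0.457, 0.285 to 0.717). The one with the lowest fold, chr17:5310305-5310582, rested on 19 and 2 counts (0.111, 0.0126 to 0.461). Removing the count trend left 4 of these 6 calls. The most counts of any Arid1b region, 316 and 431 at chr17:5189576-5190824, went the other way (1.44, 1.24 to 1.67).

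Smarca2 and Smarca4 encode BRM and BRG1, the alternative ATPases of BAF. Smarca2 was the only member with regions called in both directions. Close together in the later part of the gene, chr19:26731255-26732212 had 46 and 16 counts (0.368, 0.194 to 0.661) and chr19:26746267-26746741 had 13 and 45 (3.66, 1.94 to 7.39). The first had a listed peak in the control library alone and the second in the stretched library alone. A further higher region, chr19:26683699-26684009, had 7 and 17 counts (2.57, 1.01 to 7.32). The Smarca2 promoter had the most counts of any member region, 622 and 910 (1.55, 1.39 to 1.71). Summed, Smarca2 had 1115 and 1433 counts over 14 regions (1.36, 1.25 to 1.47), a fold of 0.960 with total scaling and 1.0 with the count trend removed. Smarca4 had 370 and 367 over 8 (1.05, 0.905 to 1.21), with 113 and 179 at the promoter and none called. Chd4, the ATPase of the NuRD deacetylase complex, had 209 and 180 over 4 (0.910, 0.741 to 1.12).

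All 4 genes for proteins that shape chromosome architecture had summed folds above 1, of which Ctcf turned below 1 with total scaling. Of their 13 regions 4 were higher (30.8%, 9.09 to 61.4, beside 6.81% of all assigned regions) and none lower (beside 8.66%). With total scaling none was higher and 2 were lower, where 1.40% and 23.4% of all assigned regions were. Hmgb2, a DNA-bending protein of proliferating cells, had the highest fold among the 33 regions over promoter windows. At chr8:57511152-57512677 it had 227 control and 508 stretched counts (2.36, 2.02 to 2.78, 1.67 with total scaling and 1.63 with the count trend removed), and an authors' enrichment of 10.5 and 13.5. Its other region, 5679 bp outside the gene, had 54 and 50 counts (0.978, 0.652 to 1.46). Satb1, a nuclear organiser required for normal epidermal differentiation, had 261 and 366 counts over 6 regions (1.48, 1.26 to 1.74, and 1.05 with total scaling). Its region chr17:51812565-51814605, 19705 bp from the 5′ end, had 55 and 116 counts (2.23, 1.60 to 3.13). A second one, chr17:51770318-51771018, had 7 and 18 (2.72, 1.08 to 7.70) with no listed peak in either library. The Satb1 promoter region had 141 and 165 (1.24, 0.982 to 1.56). Rad21, a cohesin subunit, had 57 and 81 counts over 3 regions (1.5, 1.06 to 2.15), 1 of them higher, chr15:51951801-51952878 with 14 and 31 counts (2.34, 1.21 to 4.76), 9726 bp outside the gene. A region inside the span of Rad21, chr15:51990589-51992183, went by the rule to the overlapping gene Gm52217 and had 78 and 186 (2.52, 1.92 to 3.33). With no window at hand for Rad21, it was not scored as a promoter region. Ctcf, the insulator protein that halts cohesin, had 187 and 244 over 2 regions (1.38, 1.13 to 1.68, and 0.975 with total scaling).

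The authors' own peak calls, made on each library alone, were set beside the counts. Of the 222 regions 132 overlapped a peak in both libraries (59.5%, 52.7 to 66.0), against 61.5% of all assigned regions. A peak in the control alone was found in 24 (10.8%, against 9.17% of all assigned regions). A peak in the stretched library alone was found in 28 (12.6%, against 13.8%), and 38 had neither (17.1%, against 15.5%). Among the 22 lower regions 13 had no stretched peak, and among the 12 higher ones 8 had no control peak. The same shares over all called regions are not given here. All 33 promoter regions had a peak in both libraries, as did 92.1% of all promoter regions. The enrichment there had a median of 6.38 (control) and 7.60 (stretched) and was larger in the stretched library in 30 of the 33 (90.9%). Over all promoters with both peaks the medians were 6.97 and 9.47 and the share 88.5%, so this direction was common to promoters in general.

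A list of 120 further chromatin regulator genes, partners and paralogues of the members, gave 38 higher (6.56%) and 40 lower (6.91%) of 579 regions, with a median log2 fold of -0.01. Of its 91 promoter regions 11 were higher (12.1%, beside 9.71% of all promoters) and 1 lower (1.10%, beside 2.3%), with a median of 0.40 against 0.38 for the members. In it 56 of the 118 genes with regions had a summed interval above 1 and 21 below, beside 36.1% and 18.3% of all genes. The 4 partners of the members named next were chosen after their values were seen, for their high folds. Suv39h2, a heterochromatin methyltransferase, had 128 and 289 counts (2.39, 1.93 to 2.96) and Rbbp7, a histone chaperone of Polycomb and NuRD, 109 and 232 (2.25, 1.78 to 2.85). The cohesin genes Smc3 and Stag1 had 177 and 363 (2.17, 1.81 to 2.61) and 411 and 736 (1.89, 1.67 to 2.14).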

How the data were processed

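ATAC-seq counts and peaks of 1 control and 1 stretched library were analysed, grouped by treatment label. GRCm38, Bowtie2 2.2.6, HTSeq, Picard, SAMtools and MACS2 2.1.0.20151222 are listed in the submitters' processing notes. The deposited counts are raw counts over merged regions. Not given in the sources used here is whether reads or fragments were counted and whether duplicates were removed. Per the file headers, the authors called peaks with MACS2 on each library alone at a q-value of 0.05 without a control file. The deposited fold enrichment (a ratio), -log10 p-value and -log10 q-value are relative to that library's local background, and the deposited pileup is a signal in fragments.

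Counts were scaled with TMM in edgeR 4.0.16 (R 4.3.3). Calls needed a fold of 2, 20 summed counts and an exact 95% interval excluding 1. Since PCR copies carry no molecular identifiers, the intervals express counting error alone. A gene's fold uses its summed counts. The code was tested on simulated data. The files give 0-based starts, printed here 1-based. Exon annotation was not used. Promoter windows and gene spans came from RefSeq (GRCm38.p6), and Setd8 was matched through its synonym. A region over any protein-coding gene's window counts as a promoter region. Values are given for all members by class, and single regions in full for the 8 largest folds each way (5 qualified upward) among called ones with at least 50 counts. The members, lists and rules were chosen with earlier results of these data known. Alternatives were other scalings including DESeq2 1.42.0 size factors, a lowess fit of fold on count taken out, different limits for count, fold and interval, regions inside genes only and other peak rules. Scripts ran in Python 3.11.15 with pandas 2.3.3, numpy 2.4.6, statsmodels 0.14.6, scipy 1.17.1 and matplotlib 3.10.9.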

Additional observations from a re-analysis of the deposited data

How the results depend on the processing

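No paired analysis was possible because each group has 1 library, and for the same reason no library could be left out. No called member region changed direction under the scalings run or with the count trend removed, and 8 of the 18 genes with an interval above 1 did so, under total scaling alone. Scaling by total counts gave 3 higher and 62 lower member regions, beside 1.40% and 23.4% of all assigned regions, with median log2 folds of -0.62 over the members, -0.12 at promoters and -0.72 away from them, and 4 genes with an interval above 1 and 15 below. With the counts outside the 10 large regions as the scale, the medians were -0.26 over the members and -0.36 away from promoters, beside -0.15 over all regions. Removing the count trend gave a promoter median of 0.15 and 11 genes above 1, and the share of all genes above 1 without the trend is not given here. A minimum of 50 counts left 5 higher and 11 lower regions, and a fold limit of 1.5 gave 29 and 40. The shares of all assigned regions under these limits are not given here, so the counts cannot be read against them. Leaving promoter regions out of the gene sums, an alternative chosen after seeing the data, gave 8 genes above 1, with no share of all genes at hand. Peaks with -log10 q of at least 5 lay in both libraries at 45.5% of the regions. DESeq2 size factors gave 12 higher and 21 lower, beside 6.97% and 8.54% of all assigned regions. A 99% interval gave 8 and 16, and the shares of all assigned regions with it are not given here. Giving each region over a member's span to the member, also chosen after seeing the data, gave 13 and 22. Most called regions are thin, which limits the precision of their folds.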
